A study of Homo sapiens with 12 samples.

Results

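Parental HT-29 cells treated with TBZ for 4 h were compared, transcript by transcript, with the same cells given DMSO. HT-29 is an established human colorectal adenocarcinoma line, and TBZ is a mixture of 20 ng/mL TNFα, 2 µM BV6 and 30 µM zVAD-fmk. Both groups carried no knockdown, and the labels give no duration for the DMSO treatment. Each group was 1 library of poly-A selected RNA, so 2 of the 12 samples of the series entered the comparison. Of the 51874 RefSeq transcript entries in the deposited Cufflinks lists, 51813 were present in both libraries and were used. With 1 library a side no spread between replicates could be measured and no test was made. Values were also taken from a second experiment on HT-29 cells with a hairpin against GFP (shGFP), with 2 DMSO libraries and 2 libraries at TBZ 5 h. That experiment also held cells with a hairpin against MLKL (shMLKL), again with 2 libraries under DMSO and 2 at TBZ 5 h, used here for AREG alone. Other shMLKL cells, with 1 DMSO library and 1 library at TBZ 12 h, have Cufflinks lists of the same kind as the parental cells. They are grouped here with the parental cells as the first experiment, although the sample titles name no experiment.

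TNFα binds its receptor TNFR1 and sets off NF-κB and MAP kinase signalling, which turn on a fast set of inflammatory and survival genes. BV6 mimics SMAC and removes the cellular IAP proteins, and zVAD-fmk blocks caspases. Under this combination RIPK1 and RIPK3 assemble and RIPK3 phosphorylates MLKL, the protein that permeabilises the plasma membrane in necroptosis. Many genes of these pathways have several transcripts, made from different start sites or by alternative splicing, and a gene's sum can hide a change of one of them.

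The values are FPKM (fragments per kilobase of transcript, scaled to the mapped fragments of the library) with the lower and upper bound that Cufflinks deposited for each. The bounds cover the uncertainty of assigning fragments within 1 library, not the spread between cultures. Their median half-width was 8.83% of the value under DMSO and 8.74% under TBZ, among transcripts above 1 FPKM. A transcript counted as measured when it reached 1 FPKM in one library and was above 0 in both, which held for 11056 transcripts. It was called higher or lower when log2((TBZ + 0.1)/(DMSO + 0.1)) passed 1 in size and the deposited bounds did not overlap. The pseudocount of 0.1 understates the change of low transcripts. Gene sums add the FPKM and the bounds of all RefSeq transcripts of a gene. From the coverage per FPKM the TBZ library was 1.09 times as deep as the DMSO library.

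The 2 libraries carried epithelial transcripts. The keratin KRT8 was at 3257 FPKM under DMSO and 2686 under TBZ, and the adhesion molecule EPCAM at 410.2 and 383. The intestinal factors CDX2 and CDH17 stayed under 1 FPKM in both. Of 12 leukocyte markers 9 were under 1 FPKM in both libraries, and CD3E, CD3D, CD2, MS4A1 and TYROBP were listed at 0 in both; the highest was lysozyme (LYZ), at 860 and 625 FPKM. No one of the 10 fibroblast and endothelium markers passed 0.578 FPKM.

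Transcripts called lower outnumbered those called higher. Of the 11056 measured transcripts 906 were higher under TBZ (8.19%) and 1712 were lower (15.5%). Of 9466 measured gene sums 772 were higher (8.16%) and 1464 lower (15.5%). The median log2 ratio over all measured genes was -0.25. Transcripts at 5 FPKM or more in both libraries had a median ratio with a log2 of -0.13, and dividing TBZ values by that ratio gave 922 gene sums higher and 1179 lower. In bulk RNA, fewer cells of a type and less RNA per cell cannot be told apart, so the changes below are changes of share among the RNA sequenced.

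The files also hold transcripts that Cufflinks assembled anew in each library, and these overlap RefSeq genes and take part of their signal. Assembled transcripts with at least 50% of their exon bases on a gene took 17.1% of FPKM under DMSO and 15.0% under TBZ, leaving aside 1 very abundant short entry. One of them lay on 4717 of the 9466 measured genes. When they were added to the gene sums, 664 of 10414 genes were higher (6.38%) and 1313 lower (12.6%). Of the 772 genes higher by RefSeq transcripts 480 were still called, and of the 1464 lower 831 were. In SRSF10, which encodes a splicing regulator, the RefSeq sum was 32.9 FPKM under DMSO and 4.45 under TBZ, but assembled transcripts added 29.7 FPKM under TBZ alone and the log2 ratio moved from -2.86 to 0.05. The annexin ANXA11 went the other way, from 1.84 to -0.20, as 120 FPKM of assembled transcripts stood in the DMSO library alone. In the text below a call is kept when it also holds with the assembled transcripts counted, an alternative that was added after seeing the data.

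**Figure D1:**
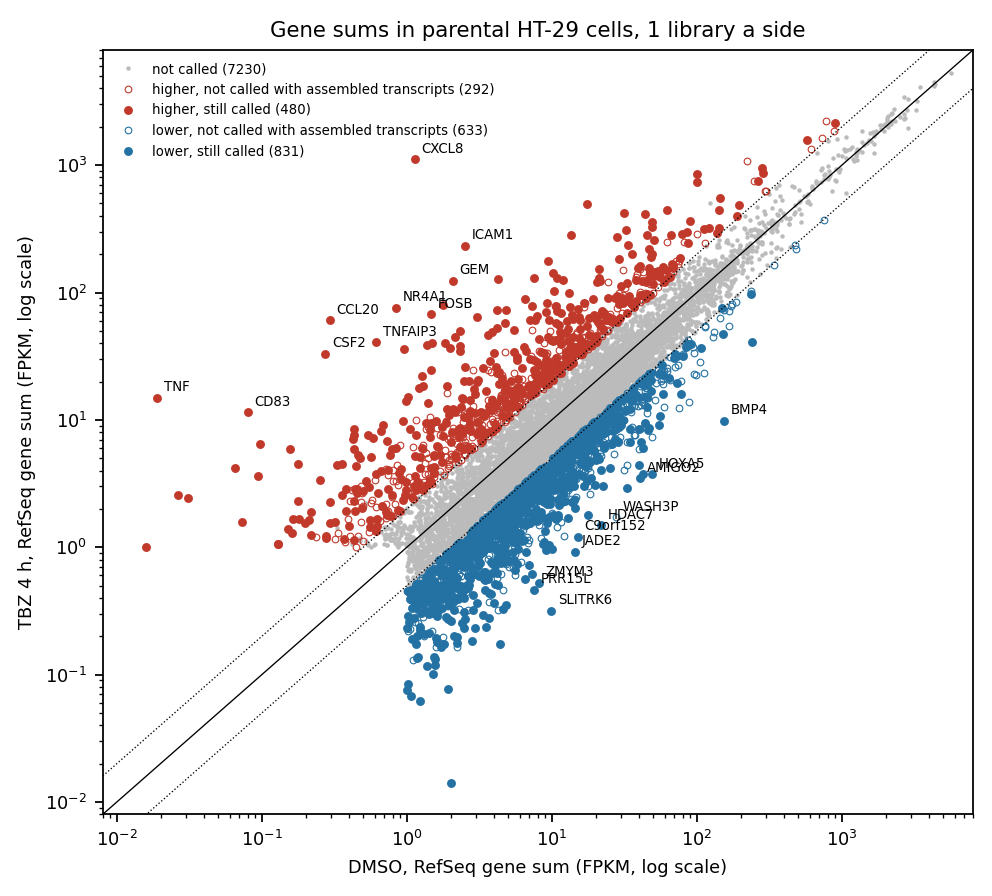
Each point is 1 measured gene, with the RefSeq gene sum under DMSO on the horizontal axis and under TBZ 4 h on the vertical axis, both in FPKM on log scales. Filled points are calls kept with assembled transcripts (480 higher in red, 831 lower in blue), open points are the other calls, the solid line is equality and the dotted lines are 2-fold.

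The kept calls and the others were then set against the second experiment. There a gene counted as higher or lower when its group means differed at least 2-fold and the 2 libraries of one group lay outside those of the other. Among 8633 genes measured in both experiments this held for 4.58% higher and 3.51% lower. Of the kept higher genes 316 of 435 were higher in shGFP cells at 5 h (72.6%), against 17 of 284 of those not kept (5.99%). Of the kept lower genes 240 of 686 were lower (35.0%), against 11 of 578 of those not kept (1.90%). By any amount, 432 of the 435 kept higher genes had a positive log2 ratio in shGFP cells and 679 of the 686 kept lower genes a negative one, where 34.6% of all 8633 genes were positive. In shMLKL cells at 12 h, where the call rule was that of the parental cells, 252 of 428 kept higher genes were higher and 191 of 734 kept lower genes lower, against 8.06% and 10.2% of the 8875 genes measured in both. Those shares were 58.9% and 26.0%, and among calls not kept 43 of 255 were higher (16.9%) and 103 of 589 lower (17.5%).

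**Figure D2:**
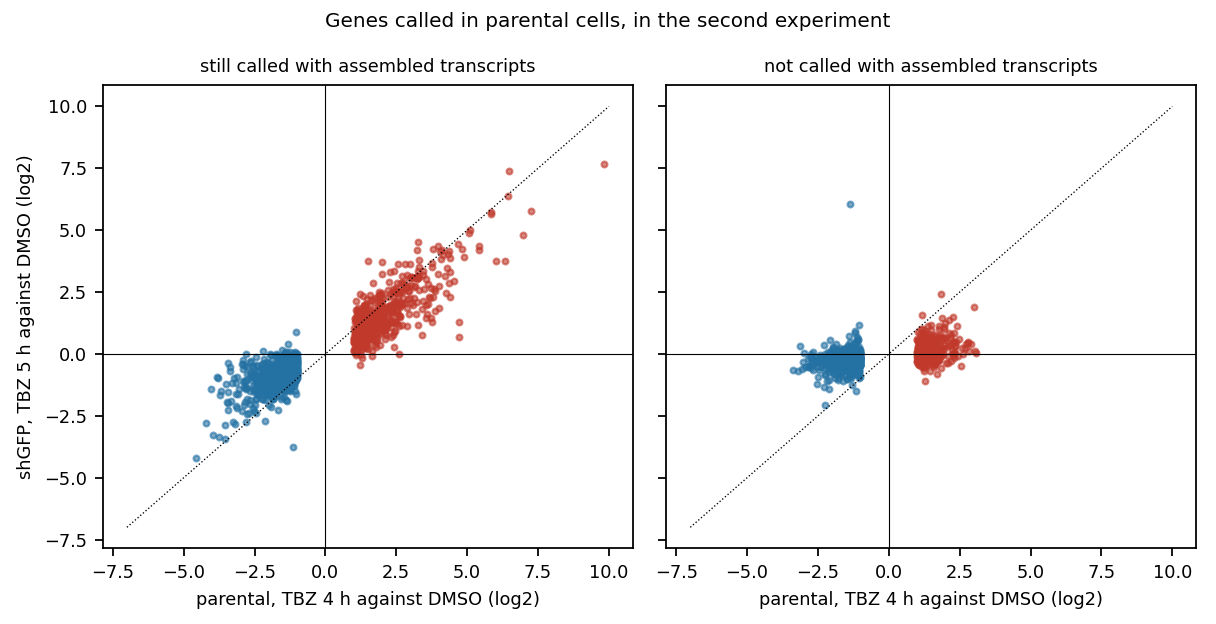
Log2 ratios (with 0.1 FPKM added) of genes called in parental cells, TBZ 4 h against DMSO on the horizontal axis, and of the same genes in shGFP cells, TBZ 5 h against DMSO on the vertical axis. Red points were called higher and blue points lower in parental cells; in the left panel, the calls kept with assembled transcripts, nearly all points lie in the quadrants of the same sign, and in the right panel most points lie near 0 on the vertical axis.

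The largest rises were in chemokines, cytokines, NF-κB feedback genes and immediate early genes. CXCL8, the neutrophil chemokine interleukin 8 (hg19 chr4:74606223-74609433), was at 1.13 FPKM under DMSO (bounds 0.837 to 1.43) and 1110 under TBZ (1063 to 1156), a log2 ratio of 9.81. CCL20, a chemokine for cells with the receptor CCR6, was at 0.294 FPKM (0.00216 to 0.670) and 60.6 (54.9 to 66.2). TNF itself was at 0.0189 FPKM, with a lower bound of 0 and an upper one of 0.0568, and at 14.9 under TBZ. For TNF the DMSO value is too near 0 for its fold to be read closely, but the 2 intervals lie far apart. CSF2, which encodes GM-CSF, was at 0.274 and 33.0 FPKM. ICAM1, an adhesion molecule for leukocytes, was at 2.53 (2.22 to 2.84) and 231 (221 to 241). The costimulatory molecule CD83 was at 0.0803 and 11.5 FPKM. TNFAIP3, the ubiquitin-editing enzyme A20 that limits NF-κB signalling, was at 0.614 and 40.7 FPKM. NR4A1, an orphan nuclear receptor, was at 0.844 and 76.2; assembled transcripts added 3.76 FPKM under DMSO, which took its log2 ratio from 6.34 to 4.02. GEM, a small GTPase, was at 2.07 and 124 FPKM, and the AP-1 subunit FOSB at 1.46 and 67.4. All 10 were higher in shGFP cells too: CXCL8 stood at 15.6 and 17.3 in the DMSO libraries there and at 3413 and 3303 in the TBZ libraries, and ICAM1 at 2.13 and 2.35 against 195 and 195.

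**Figure D3:**
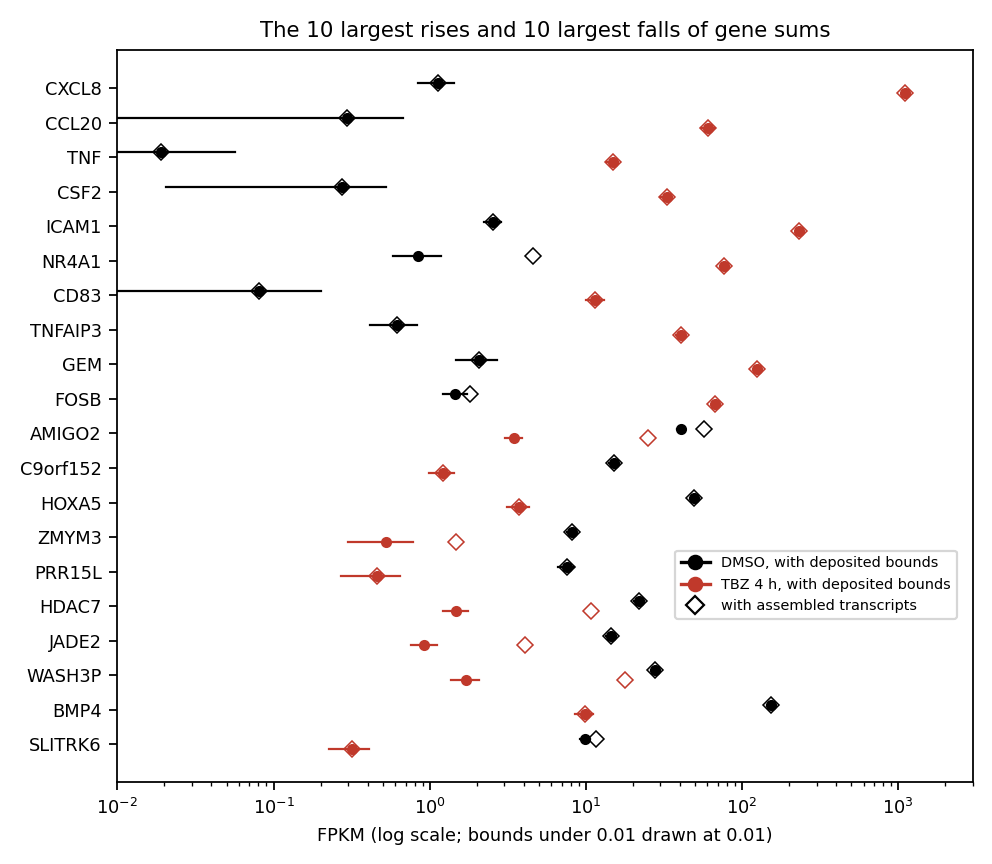
FPKM of the 10 largest rises and the 10 largest falls of gene sums, on a log scale, DMSO in black and TBZ 4 h in red, with bars for the deposited bounds and open diamonds for the sums with assembled transcripts. For CXCL8 the value moved from 1.13 to 1110; for WASH3P the open diamond lies far from the TBZ point.

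NF-κB proteins bind short κB sites near the starts of their target genes, and a match to such a site was found for 5 of the 9 of these genes that had a promoter window; GEM had none. RefSeq promoter windows (GRCh38.p14, 250 bases before a start to 50 after) were searched on both strands for the degenerate NF-κB consensus and for the shorter form GGAANTTCC, which can overlap it. The stretches below are shown because they lie upstream of 5 of the largest rises; they read 5′ to 3′ on the gene's strand, with the match in capitals.
CXCL8, chr4:73740468-73740496: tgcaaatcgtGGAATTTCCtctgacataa
CCL20, chr2:227813753-227813782: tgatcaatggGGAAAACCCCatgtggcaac
ICAM1, chr19:10270924-10270952: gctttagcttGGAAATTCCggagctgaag
CD83, chr6:14117712-14117741: tggcgcgcagGGAAGTTCCCgaacgcgcgg
TNFAIP3, chr6:137867194-137867223: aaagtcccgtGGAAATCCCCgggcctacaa
The match began 91 bases before the start in CXCL8, 79 in CCL20, 186 in ICAM1, 50 in CD83 and 55 in TNFAIP3. The windows of TNF, CSF2, NR4A1 and FOSB held no match of either form. Of all 35116 windows 11.3% held the consensus and 0.965% the shorter form. Among the 544 windows of the kept higher genes these were 20.0% and 3.31%, and among the 83 windows of the genes kept and at least 8-fold higher 28.9% and 9.64%. The 956 windows of kept lower genes held the consensus in 14.2%, near the 13.6% of the 10960 windows of all measured genes, and the shorter form in 0.418% against 1.13%. The AP-1 site TGANTCA was in 12.3% of kept higher windows, 4.60% of kept lower windows and 5.00% of measured ones, where 7.71% of all windows held it. A match is a string of letters and not a bound site. Windows were found for 380 of the 480 kept higher genes and 630 of the 831 kept lower ones.

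Gene lists were then read one by one; each is described by its counts and median beside those of all measured genes (8.16% higher, 15.5% lower, median log2 ratio -0.25). Of 32 measured NF-κB feedback and survival targets 25 were higher, 24 of them kept, and 1 was lower and not kept; their median log2 ratio was 1.99. The inhibitor NFKBIA was at 17.6 and 494 FPKM, and the subunit RELB at 10.3 and 103. NFKB1, NFKB2, REL, RELA, NFKBIE, NFKBIZ, TNIP1 and BCL3 were also higher, so inhibitors and subunits of the same pathway were higher together. In shGFP cells 25 of the 32 were higher and none was lower. Of 12 measured chemokines 11 were higher, 10 of them kept, with a median of 4.36. CXCL2 was at 1.76 and 79.2 FPKM. CXCL1, CXCL3, CXCL10, CX3CL1, CCL5 and CCL22, which attract neutrophils, lymphocytes or monocytes, were higher too, and CCL28 was not called. Of 14 inflammatory cytokines and growth factors 9 were higher and all 9 kept, with none lower. LIF, a cytokine of the interleukin 6 family, was at 6.53 and 88.1 FPKM. IL32 had a gene sum of 1.84 and 40.4 FPKM, although none of its transcripts was above 0 in both libraries. The EGF receptor ligands HBEGF, AREG, EREG and TGFA were all higher.

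Immediate early genes, which are transcribed without new protein synthesis, were higher almost throughout. Of 32 measured AP-1 and immediate early genes 30 were higher and kept, with a median log2 ratio of 2.82, and 1 was lower and not kept. In shGFP cells 28 were higher. The stress factor ATF3 was at 31.3 FPKM under DMSO (29.4 to 33.3) and 420 under TBZ (402 to 438). EGR1 was at 28.2 and 274 FPKM and JUNB at 45.1 and 285. The AP-1 subunits FOS, FOSL1, JUN and JUND and all 3 NR4A receptors were higher as well. Of 17 MAP kinase feedback regulators 8 were higher, 7 of them kept, and 3 lower, 2 of them kept. The dual-specificity phosphatases DUSP1, DUSP5 and DUSP10, which switch off MAP kinases, were at 10.2 and 141, 9.24 and 82.2, and 0.581 and 7.22 FPKM. DUSP4 and SPRY1 were among the 3 called lower. That lower share of 17.6% was near the 15.5% of all measured genes. The higher share was 47.1%, against 8.16% of all measured genes.

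Interferon-stimulated genes were called higher in part. Of 46 measured 25 were higher, 22 of them kept, and none was lower; the median log2 ratio was 1.05. IFIH1, the RNA sensor MDA5, was at 10.9 and 129 FPKM, with 21.3 FPKM of assembled transcripts under DMSO that took its log2 ratio from 3.55 to 2.00. The GTPase GBP4 was at 0.667 and 8.24 FPKM. HLA-B was at 11.8 and 126 FPKM, but shares reads with its near-identical class I relatives, so its level is uncertain. In shGFP cells at 5 h 9 of the 46 were higher and 1 was lower. ISG15, IFI6, IFI27, IFITM1, IFITM2, IFITM3, STAT2 and IRF9 were not called.

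Genes of the necroptosis machinery were called in both directions. Of 31 measured 5 were higher (16.1%), all kept, and 3 lower (9.68%), 2 of them kept, with a median log2 ratio of 0.07. Of all measured genes 8.16% were higher and 15.5% lower. MLKL was at 6.31 FPKM under DMSO (5.65 to 7.00) and 6.16 under TBZ (5.57 to 6.77), and these intervals overlap. With 2.44 FPKM of assembled transcripts under DMSO it was at 8.75 (7.67 to 9.86) against 6.16, intervals that lie apart at a log2 ratio of -0.50. In shGFP cells it was at 3.95 and 3.89 under DMSO and at 1.98 and 2.03 at TBZ 5 h. In the shMLKL cells of the first experiment it was at 0.854 FPKM under DMSO and 2.14 at TBZ 12 h. RIPK1 was at 6.24 and 10.9 FPKM and RIPK3 at 3.79 and 2.16; their intervals did not overlap, but neither reached 2-fold. CASP8 was at 4.46 and 8.12 FPKM and the receptor TNFRSF1A at 63.7 and 50.1, and neither was called. CFLAR, the caspase-8 inhibitor c-FLIP, was higher, at 26.0 and 59.1 FPKM. The adaptor TICAM1 was at 7.52 and 24.6, and the second TNF receptor TNFRSF1B at 0.296 and 1.56. The kinase AURKA was lower, at 27.1 and 7.10 FPKM. The deubiquitinase CYLD was called higher by its sum, at 1.12 and 3.00 FPKM, with 22.6 FPKM of assembled transcripts under TBZ. The cellular IAP gene BIRC2, at 16.8 and 31.1 FPKM, was not called. BIRC3, the other cellular IAP gene and an NF-κB target, was listed at 0 under DMSO and at 52.0 FPKM under TBZ, with another 87.7 FPKM of assembled transcripts; no fold is given against a listed 0. In shGFP cells BIRC3 stood at 5.03 and 5.59 under DMSO and at 134 in both TBZ libraries. RNF31 and SHARPIN, subunits of the linear ubiquitin ligase LUBAC, were at 11.3 and 23.3 FPKM under DMSO and listed at 0 under TBZ, with no assembled transcript to make up for it. In shGFP cells SHARPIN was at 5.45 and 5.74 under DMSO and at 4.65 and 4.99 at TBZ 5 h, and RNF31 at 3.01 and 3.52 and at 2.19 and 2.67, so neither was listed at 0 there.

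Death and survival genes of the BCL2 and caspase families were called in both directions. Of 29 measured 9 were higher (31.0%), 8 of them kept, and 6 lower (20.7%), of which BMF and CASP2 alone were kept. Of all 9466 measured genes 8.16% were higher and 15.5% lower, with 480 kept higher and 831 kept lower. BBC3, the BH3-only protein PUMA, was at 9.49 and 60.7 FPKM and was accompanied by 46.0 and 188 FPKM of assembled transcripts. The anti-apoptotic MCL1 and the pro-apoptotic PMAIP1, BIK and BCL2L11 were higher alongside it. BMF, another BH3-only protein, was at 4.42 and 0.175 FPKM. With assembled transcripts at 1.19 and 1.34 FPKM its log2 ratio moved from -4.04 to -1.82. CASP2, an initiator caspase, was at 17.7 and 1.80 FPKM, with 4.22 FPKM of assembled transcripts under TBZ; its log2 ratio was -3.22 without and -1.54 with them.

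Stress and sterol genes were higher in part. Of 30 measured genes of the unfolded protein and integrated stress responses 5 were higher and 1 lower, all kept. PPP1R15A, the eIF2α phosphatase subunit GADD34, was at 99.5 and 742 FPKM and the kinase EIF2AK3 at 5.14 and 16.1, while the chaperone HSPA5 and the factors ATF4, DDIT3 and XBP1 were not called. Of 24 heat shock and oxidative stress genes 9 were higher, 8 of them kept, and none was lower. The NRF2 targets TXNRD1 (66.4 and 280 FPKM), SRXN1 (11.5 and 69.2) and OSGIN1 (9.17 and 29.5) were among them; HMOX1 and NQO1 were not called. Of 23 cholesterol genes 5 were higher, 4 of them kept, and none was lower. INSIG1, which retains the sterol regulator SCAP in the endoplasmic reticulum, was at 4.27 and 128 FPKM. The isomerase IDI1 was at 4.85 and 72.2 with 15.4 FPKM of assembled transcripts under DMSO.

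**Figure D4:**
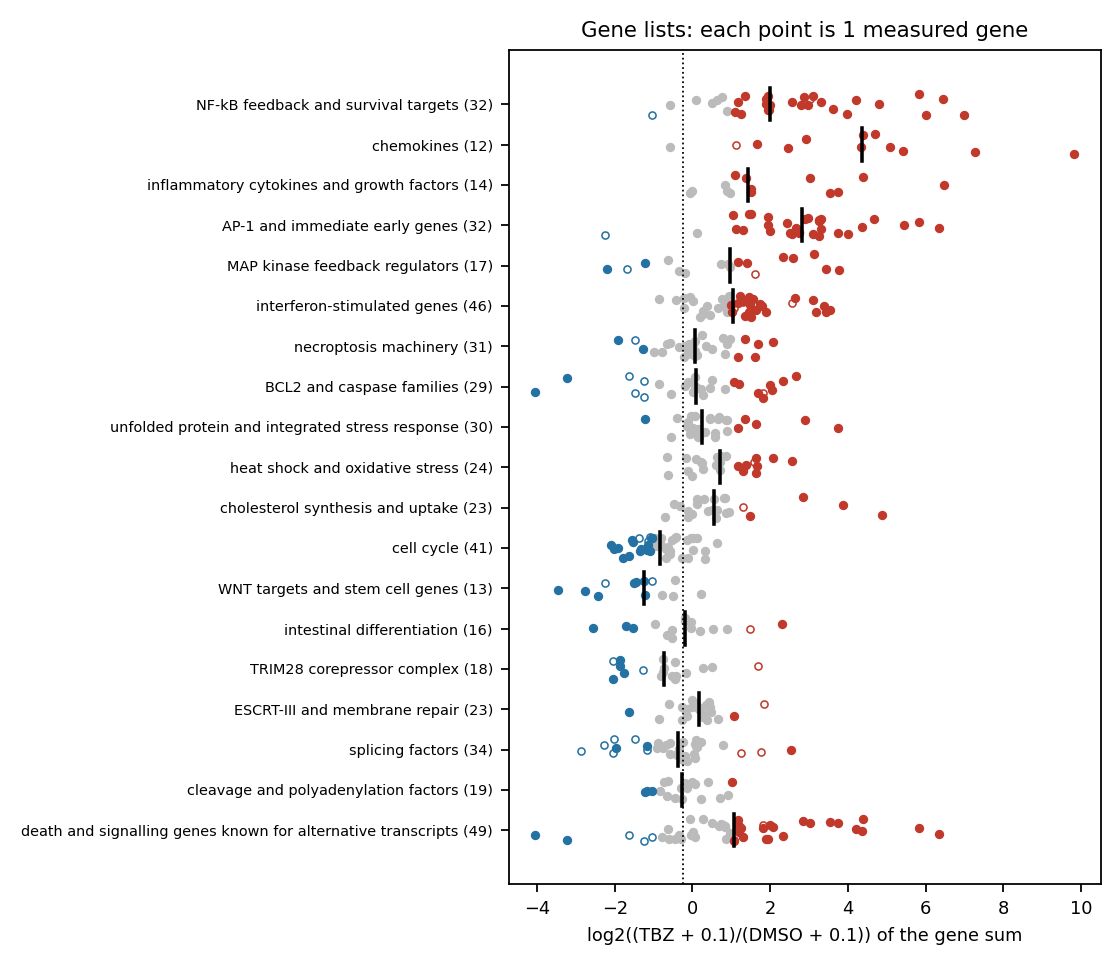
Each point is 1 measured gene of a list, placed by its log2 ratio of gene sums with 0.1 FPKM added; red is called higher, blue lower, grey not called, and open points are calls not kept with assembled transcripts. Bars mark list medians, the dotted line the median of all measured genes (-0.25), and the number measured is in parentheses; the chemokines' median is 4.36 and that of the WNT targets -1.25.

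The largest falls included signalling and developmental genes. SLITRK6, a transmembrane protein known from neurons, was at 9.89 FPKM under DMSO (9.19 to 10.6) and 0.317 under TBZ (0.226 to 0.408). BMP4, a secreted ligand of the TGF-β family, was at 153 (145 to 162) and 9.81 (8.52 to 11.1), and both of its measured transcripts were lower. The homeobox gene HOXA5 was at 49.0 and 3.74 FPKM. PRR15L was at 7.52 and 0.460 FPKM and C9orf152 at 15.1 and 1.21. These 5 had no assembled transcript under TBZ, and all 5 were lower in shGFP cells too. There SLITRK6 went from 10.9 and 9.72 to 0.511 and 0.412. In shMLKL cells at 12 h SLITRK6, PRR15L and C9orf152 were called lower as well. BMP4, at 101 and 51.4 FPKM in those cells, was not called. HOXA5 was listed at 0 under DMSO there and was at 12.2 FPKM under TBZ. The histone deacetylase HDAC7 was at 21.9 and 1.48 FPKM, but with 9.32 FPKM of assembled transcripts under TBZ its log2 ratio moved from -3.80 to -1.01. JADE2 moved from -3.83 to -1.81, AMIGO2 from -3.51 to -1.18 and ZMYM3 from -3.71 to -2.37. The pseudogene WASH3P, one of a family of near-identical copies, was no longer called (-0.63).

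Some cell cycle genes and most measured WNT targets were called lower. Of 41 measured cell cycle genes 17 were lower, 14 of them kept, and none was higher; the median log2 ratio was -0.83. The mitotic kinesin KIF20A was at 9.65 and 2.18 FPKM and the kinase PLK1 at 20.2 and 4.88. CCNA2, CDT1, BUB1B, TTK, KIF2C, CENPF, MCM2, MCM3, MCM5, RRM2 and TYMS, which act in DNA replication or mitosis, were lower as well. With TBZ values divided by the median ratio 13 of the 41 were lower. In shGFP cells at 5 h 3 of the 41 were lower by the 2-fold rule. Of 13 measured WNT targets and stem cell genes 9 were lower, 7 of them kept, and none was higher, with a median of -1.25. In shGFP cells 8 of these were measured, of which 2 were lower and none was higher. RNF43, a ubiquitin ligase that removes WNT receptors, was at 42.3 (40.2 to 44.4) and 3.72 (3.35 to 4.10), and at 19.5 and 19.8 against 5.05 and 4.99 in shGFP cells. The factors SP5 and ASCL2 were at 1.37 and 0.117 and at 3.43 and 0.555 FPKM; ASCL2 was under 0.2 in every shGFP library. ZNRF3, LGR5, DKK1 and PROM1 were lower too, and SOX9, EPHB2, EPHB3 and TCF7 were not called.

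Each of the next lists held at most 4 kept calls in either direction. Of all 9466 measured genes 480 were kept higher and 831 kept lower. Of 16 intestinal differentiation genes 2 were higher, 1 of them kept, and 3 were lower (18.8%, against 15.5% of all measured genes). All 3 were kept, among them the nuclear receptor HNF4A (9.44 and 2.83 FPKM, both measured transcripts lower) and the villus protein VIL1. Carbonic anhydrase CA2 was higher, at 0.743 and 4.03. Of 18 genes of the TRIM28 corepressor complex and its partners 6 were lower, 4 of them kept: DNMT3A, UHRF1, SUV39H1 and EHMT2. TRIM28 itself was at 102 and 75.8 FPKM and was not called; with 20.9 and 50.5 FPKM of assembled transcripts its log2 ratio was 0.03. TASOR turned from -2.05 to 0.51 when assembled transcripts were counted. Of 34 splicing factors 3 were higher and 8 lower, and 1 and 2 of these were kept. Of 19 cleavage and polyadenylation factors CPSF1, CSTF2 and CSTF2T were lower and RBBP6 higher, all kept. Of 23 genes of ESCRT-III and membrane repair, which remove damaged plasma membrane, 2 were higher and 1 lower; of these ANXA5 (138 and 291 FPKM) and CHMP6 (6.14 and 1.90) were kept.

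Of all 9466 measured genes 15.8% had 2 or more measured transcripts. Of the 772 genes higher 105 had 2 or more (13.6%), and in 63 of these every one was higher. CCL20, CFLAR, GEM, TXNRD1 and TNFAIP3 were such genes. Of the 1464 genes lower 170 had 2 or more (11.6%), and in 72 every one was lower. Called transcripts spanned a median of 24.5 kb with 8 exons for the higher and 23.5 kb with 9 exons for the lower. All measured transcripts had a median of 26.0 kb and 9 exons. Among kept calls the medians were 17.9 kb and 6 exons for the higher and 16.6 kb and 7 exons for the lower. The shorter span thus appeared mainly among kept calls, a choice that the set of all measured transcripts did not go through. Single-exon transcripts made up 3.42% and 3.56% of the called, 5.21% and 6.42% of the kept and 2.42% of all measured.

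Transcripts of 1 gene that changed differently were sought among the 1496 genes with 2 or more measured transcripts. In 274 genes (18.3%) a pair had log2 ratios at least 1 apart with bounds of the TBZ/DMSO ratio that did not overlap. In 11 genes (0.735%) 1 transcript was higher and another lower. Assembled transcripts touched most of these, and 116 of the 274 and 3 of the 11 had none in either library. In 92 of the 116 the gene sum stayed within 2-fold, so the sums alone would not show them. The pair differed in its start alone in 63 of the 116 (54.3%), where 25.4% of all 1135 pairs of measured transcripts in genes without assembled transcripts did. Over all 274 genes this share was 39.4%, against 26.4% of all 1866 pairs. Each of the 274 genes gave 1 pair, the one with the largest difference, while the comparison took every pair of a gene. The 2 sets are thus unlike, and whether this choice favours pairs with different starts was not tested. In 40 of the 63 the transcript with the larger ratio started downstream of the other.

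TNFAIP8, an NF-κB target and regulator of cell death, showed the widest gap among pairs without assembled transcripts that differed in their start. NM_014350 (hg19 chr5:118691515-118730299) was at 1.44 FPKM under DMSO (1.07 to 1.80) and 31.2 under TBZ (29.2 to 33.2). NM_001077654, which starts 87128 bases upstream (chr5:118604387-118730299), was at 11.5 (10.5 to 12.5) and 20.3 (18.7 to 21.9). The share of the gene's sum held by the downstream transcript went from 11.1% to 60.5%. In shMLKL cells the same transcripts were at 3.19 and 12.8 and at 8.17 and 11.0 FPKM. PFKFB3, the glycolytic regulator that makes fructose 2,6-bisphosphate, had NM_004566 at 0.637 (0.456 to 0.819) and 14.7 (13.8 to 15.6) and NM_001145443, whose start lies 57997 bases upstream, at 3.67 (3.29 to 4.05) and 8.86 (8.18 to 9.54). Both were higher, by log2 ratios 3.08 apart. The nucleotidase NT5C3A had NM_016489 at 9.63 and 48.5 FPKM and NM_001002009, from a start 21632 bases upstream, at 21.2 and 19.9. In the laminin subunit LAMA3 the short transcript NM_000227 of 38 exons was at 8.43 and 22.9, and the long NM_198129 of 75 exons, which starts 183577 bases upstream, at 2.22 and 1.48. The MAP kinase kinase MAP2K3 had NM_002756 at 7.48 and 65.1 and NM_145109 at 40.6 and 125. In each of these 5 genes the transcript from the downstream start was the one with the larger ratio.

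In KEAP1 and MYO1C 1 transcript was called lower and the other was not called. KEAP1, the adaptor that targets NRF2 for degradation, had NM_012289 at 6.65 (5.88 to 7.42) and 7.67 (6.93 to 8.40) and NM_203500, which starts 573 bases upstream, at 11.5 (10.5 to 12.5) and 3.95 (3.41 to 4.50). The myosin MYO1C had NM_001080950 at 26.0 and 30.5 FPKM and NM_001080779 at 22.5 and 8.16. In YPEL5, whose pair shares its start and end, NM_001127400 was called higher, at 2.03 and 8.16, while NM_016061 was at 13.9 and 10.7 and was not called. These 3 gene sums moved by less than 2-fold.

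The 3 genes with opposite calls and no assembled transcript were DNAJA4, SNAPC2 and HELLS. The co-chaperone DNAJA4 had NM_001130182 at 2.97 (2.48 to 3.45) and 6.15 (5.53 to 6.78) and NM_018602 at 11.0 (10.2 to 11.9) and 3.33 (2.86 to 3.80). SNAPC2, a subunit of a complex that activates small nuclear RNA genes, had the non-coding NR_030717 at 1.93 and 5.29 and NM_003083 at 5.45 and 2.41. The chromatin remodeller HELLS had NM_001289068 at 0.568 and 2.21 and NM_018063 at 2.27 and 0.604. Their gene sums differed by log2 ratios of -0.12, 0.06 and 0.25. Among those with assembled transcripts, PHACTR4 had NM_023923 at 2.51 and 10.3 and NM_001048183 at 8.58 and 3.04, beside 4.43 FPKM of assembled transcripts under DMSO. BPTF had NM_182641 at 2.04 and 7.42 and NM_004459 at 10.2 and 4.36, beside 8.36 and 10.5 FPKM. In EXT2 such transcripts, at 12.0 and 11.9 FPKM, exceeded both RefSeq ones.

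**Figure D5:**
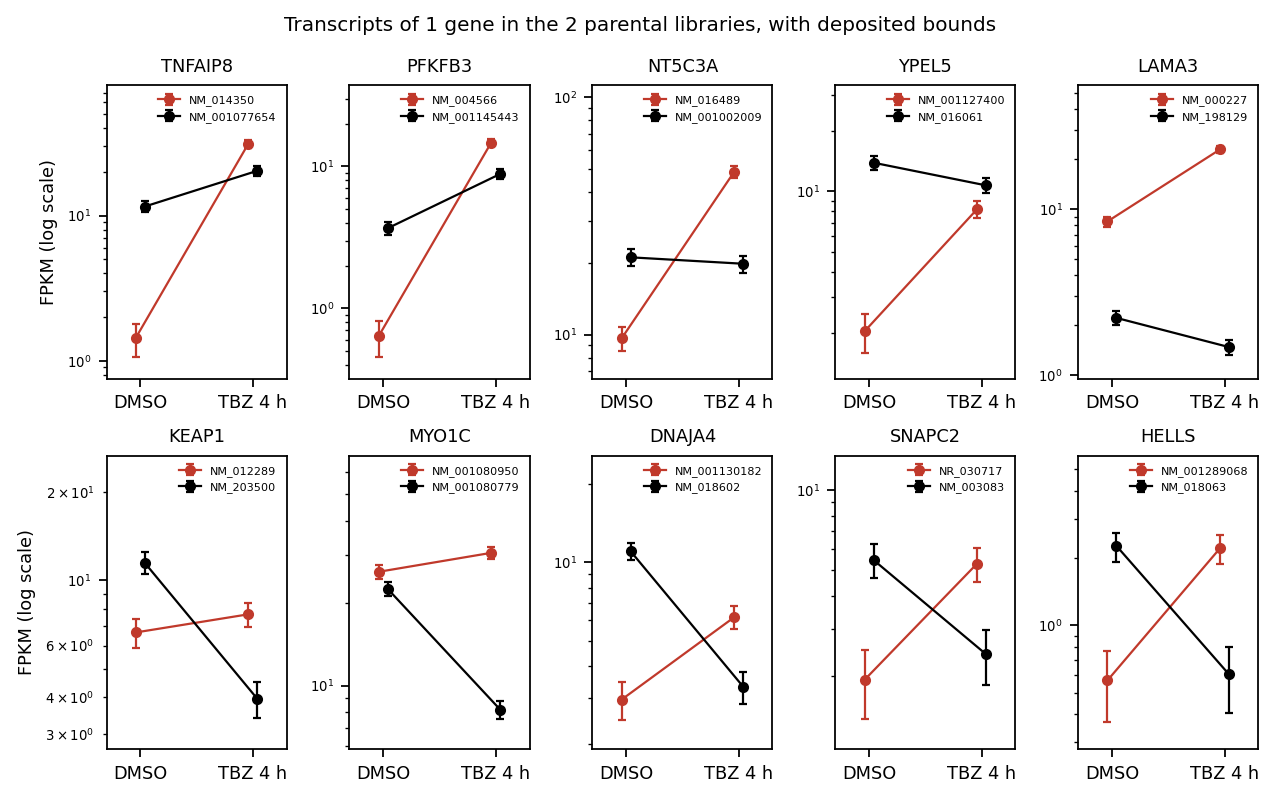
FPKM on log scales of a pair of RefSeq transcripts under DMSO and TBZ 4 h in 10 genes without assembled transcripts, with the deposited bounds as bars; the transcript with the larger ratio is red and the other black. In TNFAIP8, PFKFB3 and NT5C3A the lines cross as the red transcript overtakes the black one, and in DNAJA4, SNAPC2 and HELLS they move in opposite directions.

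Of the 116 genes, 88 had both transcripts measured in shMLKL cells at 12 h. There 53 of the 88 (60.2%) had a difference of the same sign, and in 12 (13.6%) it was again at least 1 on the log2 scale. Genes at least as far apart in the opposite direction were not counted, so the 12 have no such number beside them. The 12 were TNFAIP8, PFKFB3, GEM, LAMA3, KEAP1, MYO1C, RIPOR1, ETFDH, STRA6, SEPTIN8, KDM2A and SPINT1, named after their values were seen. In 10 of these 12 the 2 transcripts have different starts, and in GEM and SEPTIN8 they share both ends within 50 bases. LAMA3 stood 1.98 apart in both pairs of libraries. In all, 47 genes met the rule in both pairs of libraries, which is 17.2% of the 274 in parental cells. They were 22.3% of the 211 that met it in shMLKL cells. By comparison, 14.4% of all 1466 genes with 2 or more measured transcripts met it in shMLKL cells, and 18.3% of 1496 in parental cells. The same 2 transcripts differed in the same order in 25 of the 274 genes (9.12%).

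A separate promoter window could be matched to each start in 27 of the 109 genes whose pair differs in its start. The NF-κB consensus was in the window of the transcript with the larger ratio in 8 of the 27 and in that of the other in 8. In RNF214 and NFXL1 the windows overlap, and the same match counts on both sides. The windows did not separate the starts by this motif. Among the 12 genes just named, only PFKFB3, MYO1C and RIPOR1 had a separate window for each start. In these the consensus stood in the window of the transcript with the larger ratio alone. They were chosen after their values were seen, so they add nothing to the 8 and 8 of all 27. The others of the 12 could not be compared in this way. The stretches of MYO1C and RIPOR1 are shown as examples from these chosen genes. Both are on GRCh38.p14, with the match in capitals.
MYO1C, chr17:1485830-1485859, minus strand: ggggaggccgGGGAAGCCCCgcgcttcagg
RIPOR1, chr16:67537365-67537394, plus strand: ccctccccgaGGGGAACCCCagtcaccggt
They begin 89 and 87 bases before the start of NM_001080950 and of NM_001193524, which was at 3.71 and 7.12 FPKM while NM_024519 was at 7.38 and 5.10.

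Transcripts listed at 0 in 1 library stayed out of the calls. There were 966 such transcripts under DMSO and 1183 under TBZ among the 13205 at 1 FPKM or more in a library. Of the 2109 with a gene, 790 belonged to genes whose RefSeq sum differed by less than 2-fold, and 1252 once assembled transcripts were counted. In most of them, then, the gene as a whole differed by less than 2-fold with assembled transcripts counted. Genes with a called sum held such transcripts too. In IL32, whose sum was higher, NM_001012632 was listed at 0 and at 40.4 FPKM, and NM_004221 at 1.43 and at 0. In CASP2, whose sum was lower, NM_032982 was at 11.7 and 1.80 and NM_001224 at 5.94 and 0. The inhibitor NFKBIB was at 9.72 FPKM under DMSO and listed at 0 under TBZ, and had a log2 ratio of 1.04 with assembled transcripts.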

How the data were processed

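Poly-A selected RNA was sequenced as paired-end reads from libraries made with a stranded kit, per the labels' protocols. The submitters' processing notes name Cufflinks 2.2.1, the aligners STAR 2.4.0f1 and TopHat2 2.0.13, GATK and the hg19 build; their roles are not given in the sources used here. Each parental library has a list of transcripts from Cufflinks, deposited with FPKM and bounds; for the second experiment they deposited 1 gene table whose values were taken as FPKM. No file used holds counts, so depth is known only relatively. The 89-base entry on chromosome 1 (567705 to 567793), at 3849689 and 5320051 FPKM, has no gene name and entered no gene sum.

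RefSeq entries were named by deposited gene ID (22951) or accession (28323, through RefSeq tables of GRCh38.p14); 643 had no gene. Calls needed 1 FPKM in one library, values above 0 in both, a 2-fold change with 0.1 added, and bounds apart. Starts or ends over 50 bases apart counted as different. Second-experiment symbols on several lines took the line with the highest mean, and 19007 of 19128 matched a gene. Its values are on a scale of their own, so only ratios within it were used. Where the labels do not say that libraries came from separate cultures, the spread may be technical. Named genes were the 10 largest rises and falls of gene sums at 5 FPKM or more, up to 10 genes with opposite transcripts, 8 with different amounts, up to 3 of each list with 3 or more calls, and a fixed set of necroptosis genes; other genes named with values are list members or pair genes chosen after values were seen. The members and the 24 gene lists were chosen with earlier results of these data known. The call rules were tested on simulated data drawn around DMSO values at 5 FPKM or more. These held neither spread between cultures nor assembled transcripts, so they do not bear on those limits. Python 3.11.15, pandas 2.3.3 and numpy 2.4.6 were used. Alternatives changed the FPKM minimum, pseudocount, library scale, fold, listed zeros, entries at several loci and, after the data were seen, the assembled transcripts and short entries. Some results are not reported here.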

Additional observations from a re-analysis of the deposited data

Results flagged for a closer look

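AREG, the EGF receptor ligand amphiregulin, was called higher in parental cells at 4 h and lower in shMLKL cells at 12 h. It was at 265 FPKM under DMSO and 749 under TBZ in parental cells, a log2 ratio of 1.50, and at 245 and 116 in shMLKL cells, a log2 ratio of -1.08. In shGFP cells at 5 h its log2 ratio was 1.12, from 103 and 113 FPKM under DMSO to 238 and 234 under TBZ. In shMLKL cells of the second experiment it was at 247 and 231 under DMSO and at 244 and 256 at TBZ 5 h, a log2 ratio of 0.06. The parental pair and the shMLKL pair at 12 h, each with 1 library a side, moved in opposite directions, and both cell line and time differ between them; the difference was not tested.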

How the results depend on the processing

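No paired analysis was possible because each side is 1 library and there is no second pair to form a block. Counts are given in the order transcripts higher, transcripts lower, gene sums higher, gene sums lower, genes with opposite transcripts and genes with different amounts, which were 906, 1712, 772, 1464, 11 and 274. With bounds apart and no fold minimum they were 2615, 5332, 2161, 4521, 151 and 545. With a fold of at least 4 they were 266, 305, 242, 281, 0 and 46. In genes with no assembled transcript they were 382, 606, 309, 473, 3 and 116, which counts fewer genes by construction. At a minimum of 5 FPKM, lower transcripts were 939, lower gene sums 870, opposite genes 5 and different amounts 125. With a pseudocount of 1, lower transcripts were 1036, lower gene sums 936 and opposite genes 4. With transcripts listed at 0 kept, transcripts were 1846 higher and 2877 lower, opposite genes 248 and different amounts 1209. Every other alternative, including both ways of counting assembled transcripts, stayed within 1.5 times. Dividing TBZ by the median ratio gave 1083 transcripts higher and 1395 lower. Of 73 named genes with a call, counting assembled transcripts by exon share reversed 3: ANXA11 to -0.20, SRSF10 to 0.0542 and TASOR to 0.51 (log2; the same with any shared exon base). It took 4 others out of the calls. With 1 library a side, none of these counts carries the spread between cultures, and the deposited bounds cover 1 library each. Transcripts under 1 FPKM in both libraries are not described.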

Other observations

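Among genes still called with assembled transcripts, 9 of 480 higher ones were called lower in shMLKL cells at 12 h, and 15 of 831 lower ones were called higher there. CLDN4, a tight junction protein, was at 287 FPKM under DMSO and 864 under TBZ, the 1 higher gene of 11 measured epithelial markers.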
